A study of Mus musculus with 12 samples.

Results

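The Obox genes encode oocyte-specific homeobox proteins. The 7 genes Obox1, Obox2, Obox3, Obox5, Obox6, Obox7 and Obox8 were taken by symbol from GENCODE mouse release 21 (GRCm38), and all 7 were found among the 55573 genes of the count files. They were followed in poly(A) RNA-seq of mouse germinal vesicle (GV) oocytes, the full-size stage before meiosis resumes. The study varied the number of amplification cycles and the amount of oocyte RNA. It also examined normalization by spike-in RNA, the ERCC molecules of the External RNA Controls Consortium. There were 12 libraries, 2 in each of 6 groups. Groups of whole oocytes were amplified for 10, 14 or 18 cycles, and groups of 1/2, 1/4 or 1/8 of an oocyte were, according to the methods, amplified for 18 cycles. The oocytes came, as the methods word it, from a B6D2F1 female aged 12 weeks, and were collected in M2 medium with milrinone, which all groups shared. The fractions were dilutions of the lysates of 2 oocytes, and each whole library came from its own oocyte. No group carried a mutation or a treatment that set it apart from the others. Each library received ERCC mix.

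Obox proteins carry a homeodomain of the paired-like class and are transcription factors found in rodents. Obox1, Obox2, Obox5 and Obox7 are known as maternal members, whose transcripts are stored in the oocyte. Obox3 is known mainly from the embryo at the time its genome is activated, and Obox6 from cleavage stages, so the oocyte holds a stock of some members before others are transcribed.

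Counts on genes were 11597144 and 9189672 in the whole oocytes amplified for 10 cycles, 12349577 and 13806199 for 14 cycles, then 3017069 and 1706478 for 18 cycles. In 1/2 of an oocyte there were 4024670 and 3598549, in 1/4 there were 4027907 and 5049518, and in 1/8 there were 11404262 and 1702062. Among whole oocytes the shallow libraries were those at 18 cycles, so depth, cycle number and oocyte cannot be told apart there. Levels are given as CPM, the counts on a gene per 1e6 counts on all genes, with the mean ± SD of the 2 libraries of a group. A count of 0 allows up to 3 counts, which corresponds to 0.217 CPM in the deepest library and 1.76 CPM in the shallowest. Such floors and the Wilson intervals below cover only the error of counting, which leaves out amplification. Replicates were different oocytes or lysates, apparently of 1 female, so p-values measure the spread between these libraries. The chi-square per degree of freedom between the 2 libraries of a group ranged from 10.0 to 16.7, so replicates differed by more than counting error.

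The labelled cell type was checked with 13 oocyte markers and 12 cumulus and granulosa markers. All 13 oocyte markers were detected in all 12 libraries. Their summed level was 36438 and 31810 CPM at 10 cycles, 35599 and 36922 at 14 cycles, with 9930 and 8702 at 18 cycles. It was 14791 and 12974 CPM for 1/2, 18673 and 20989 for 1/4 and 30420 and 27269 for 1/8. The oocyte marker sum was thus lowest in the whole oocytes at 18 cycles. The cumulus and granulosa markers summed to 168 and 38.5 CPM at 10 cycles, 55.8 and 113 at 14 cycles, with 49.1 and 13.5 at 18 cycles. They summed to 15.7 and 16.7 CPM for 1/2, 29.0 and 30.1 for 1/4 and 49.2 and 42.3 for 1/8. Cyp19a1 was the most abundant of them in 10 of the 12 libraries, Cyp11a1 in replicate 1 at 10 cycles and Inha in replicate 1 at 18 cycles. Tnfaip6 was at 0 counts in all 12 libraries, Fshr in 9 and Foxl2 and Lhcgr in 7 each.

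Obox5, a maternal member, had 885 and 1032 CPM at 10 cycles, 825 and 970 at 14 cycles, with 87.5 and 131 at 18 cycles. It had 168 and 158 CPM in 1/2, 179 and 150 in 1/4 and 513 and 764 in 1/8 of an oocyte. Ordered by group, its level was 959 ± 104 CPM at 10 cycles, 898 ± 102 at 14 cycles, 639 ± 178 in 1/8, 164 ± 20.1 in 1/4, 163 ± 7.12 in 1/2 and 109 ± 30.5 in whole oocytes at 18 cycles (SD, n = 2 each). Libraries at 10 and 14 cycles overlapped, as did those of 1/4 and 1/2, and the whole oocytes at 18 cycles lay below all other libraries.

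Obox2 had 870 and 998 CPM at 10 cycles, 730 and 1012 at 14 cycles, with 99.1 and 158 at 18 cycles. In the fractions it had 122 and 141 CPM in 1/2, 129 and 76.6 in 1/4 and 471 and 644 in 1/8. The group levels were 934 ± 90.2 CPM at 10 cycles, 871 ± 199 at 14 cycles, 557 ± 122 in 1/8, 132 ± 13.6 in 1/2, 128 ± 41.4 at 18 cycles and 103 ± 37.3 in 1/4 (SD, n = 2 each). The 3 lowest groups overlapped one another, and 1/8 lay between them and the whole oocytes at 10 and 14 cycles with no overlap.

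Obox1 had 362 and 415 CPM at 10 cycles, 336 and 412 at 14 cycles, with 38.1 and 69.7 at 18 cycles. In the fractions it had 68.1 and 81.4 CPM in 1/2, 68.0 and 56.4 in 1/4 and 227 and 259 in 1/8. The group levels were 389 ± 37.8 CPM at 10 cycles, 374 ± 53.4 at 14 cycles, 243 ± 23.0 in 1/8, 74.8 ± 9.43 in 1/2, 62.2 ± 8.19 in 1/4 and 53.9 ± 22.4 at 18 cycles (SD, n = 2 each). Obox1 thus had the same high and low groups as Obox2, with overlap between 18 cycles, 1/2 and 1/4 through replicate 2 at 18 cycles.

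Obox7, the least abundant of the 4 maternal members, had 109 and 143 CPM at 10 cycles, 87.7 and 99.4 at 14 cycles, with 13.3 and 36.3 at 18 cycles. In the fractions it had 25.8 and 42.0 CPM in 1/2, 22.6 and 36.2 in 1/4 and 58.4 and 95.2 in 1/8. The group levels were 126 ± 24.2 CPM at 10 cycles, 93.5 ± 8.26 at 14 cycles, 76.8 ± 26.0 in 1/8, 33.9 ± 11.4 in 1/2, 29.4 ± 9.65 in 1/4 and 24.8 ± 16.3 at 18 cycles (SD, n = 2 each). Its libraries at 14 cycles and 1/8 overlapped, and the 2 libraries at 18 cycles differed more than those of the other groups relative to their mean. The 40 and 62 counts behind them gave Wilson 95% intervals of 9.74 to 18.1 and 28.3 to 46.6 CPM, which did not overlap.

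**Figure D1:**
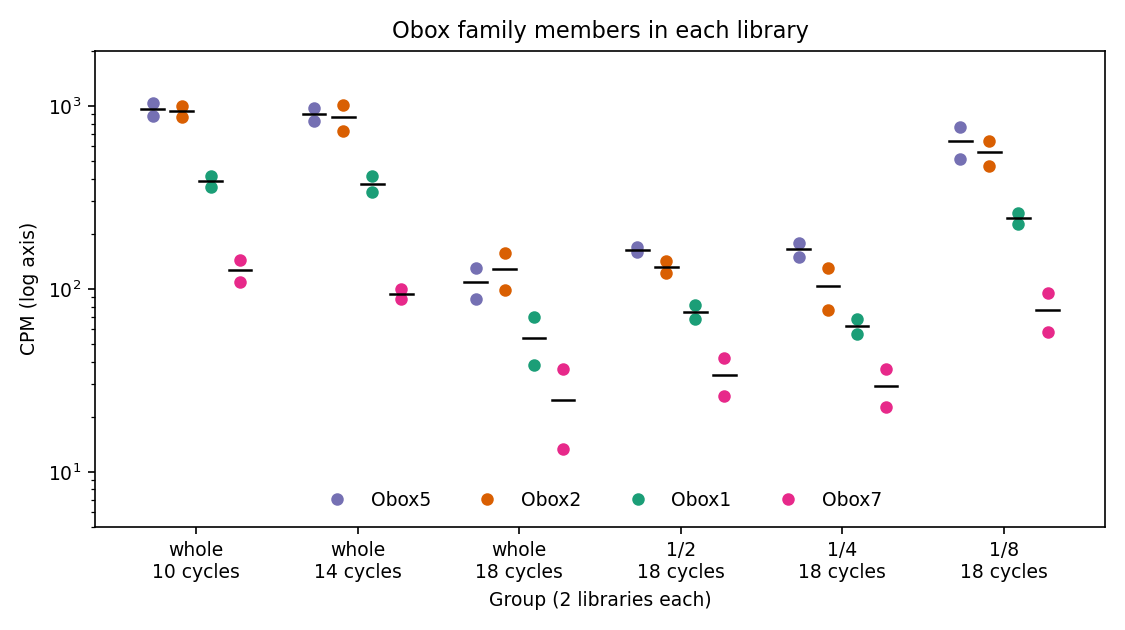
CPM on a log axis of the 4 Obox members with counts in every library, by group, with points for the 2 libraries and a black line for their mean. On this scale, all 4 members were lower in whole oocytes at 18 cycles than at 10 or 14 cycles, while counts per ERCC count differed less, and 1/8 of an oocyte lay between 10 cycles and the other fractions.

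The 7 members together took 2227 and 2589 CPM at 10 cycles, 1980 and 2494 at 14 cycles, with 238 and 394 at 18 cycles. Their sum was 385 and 423 CPM in 1/2, 398 and 320 in 1/4 and 1272 and 1763 in 1/8. The mean sum at 10 cycles was thus 7.62-fold that at 18 cycles and 1.59-fold that of 1/8. Obox5 ranked 92 and Obox2 ranked 98 by mean CPM among the 25191 genes detected at 10 cycles, and Obox1 and Obox7 ranked 403 and 1929. At 18 cycles they ranked 2262, 1904, 3891 and 5935 in the same order, among 18122 genes detected.

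Per length of exon, Obox2 stood above Obox5 at 10 cycles, where Obox5 was higher by CPM. Exon lengths were not corrected for sequence shared between members, so these levels are uncertain, above all in Obox1 and Obox2. At 10 cycles Obox2 had 568 ± 54.8 CPM per kb, Obox5 449 ± 48.6, Obox1 205 ± 19.9 and Obox7 78.6 ± 15.1 (SD, n = 2 each), with no overlap between neighbours. At 18 cycles the levels were 78.0 ± 25.1 CPM per kb for Obox2, 51.1 ± 14.3 for Obox5, 28.4 ± 11.8 for Obox1 and 15.5 ± 10.2 for Obox7 (SD, n = 2 each). This was also the order by CPM at 18 cycles, and libraries of Obox2 and Obox5 overlapped there, as did those of Obox1 and Obox7.

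Abundance was tested by edgeR's quasi-likelihood test, adjusted over all genes after Benjamini-Hochberg at a threshold of 0.01, in genes that reached 5 counts in 2 or more of the libraries fitted. Obox1, Obox2, Obox5 and Obox7 were tested, 4 of the 7 members, and Obox3, Obox6 and Obox8 did not pass the filter in either fit. A fit on whole oocytes held 17532 genes and took size factors from the median ratio over genes. Between 14 and 10 cycles 0 genes were called by edgeR (0.0%), with 513 at an unadjusted p under 0.05 and 2 called by DESeq2. Of the 4 members, 0 were called by edgeR, 0 had an unadjusted p under 0.05 and 0 were called by DESeq2, and their median log2 fold change was -0.14 beside 0.0062 over all genes.

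Whole oocytes at 18 cycles had lower Obox levels than those at 10 cycles with median ratio scaling. By edgeR, 0 members were called with ERCC scaling, as given below. With median ratio scaling 4 of the 4 members tested were lower, where 1898 of all genes tested (10.8%) were lower and 2155 (12.3%) higher. The median log2 fold change was -2.59 over the members and -0.29 over all genes. Obox5 changed by -2.87 on the log2 scale (SE 0.28, adjusted p = 8.62e-05 by the quasi-likelihood test of edgeR, Benjamini-Hochberg adjusted). Obox1 changed by -2.60 (SE 0.32), Obox2 by -2.59 (SE 0.30) and Obox7 by -2.14 (SE 0.41), with adjusted p of 0.000216, 0.000168 and 0.00236 in the same edgeR test. The ratio of mean CPM was 8.79 for Obox5, 7.28 for Obox2, 7.21 for Obox1 and 5.08 for Obox7, larger than the fitted folds because CPM divides by total counts and not by size factors. Whether Obox7 differed from the other members was not tested. Its call was lost without replicate 1 at 10 cycles (adjusted p = 0.0129) and without replicate 2 at 10 cycles (adjusted p = 0.0306, edgeR), within a range of 3.51e-13 to 0.936 over all alternatives. Its fold change was -1.43 without replicate 1 and -3.03 without replicate 2 at 18 cycles.

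Between 18 and 14 cycles, which shares the 18-cycle libraries, 4 of 4 members were again lower with median ratio scaling, beside 1873 genes lower (10.7%) and 2199 higher (12.5%). Obox5 changed by -2.73 (SE 0.28), Obox1 by -2.50 (SE 0.32), Obox2 by -2.45 (SE 0.30) and Obox7 by -1.67 (SE 0.41) on the log2 scale, the last turning to 0.47 with ERCC scaling. Their adjusted p-values were 9.74e-05, 0.000248, 0.000213 and 0.00873 by the quasi-likelihood test of edgeR, Benjamini-Hochberg adjusted. The Obox7 call was lost in 5 of the 6 fits that each left out 1 library, with adjusted p from 0.0199 to 0.0338, and was held without replicate 2 at 18 cycles (0.000724). Over all alternatives its adjusted p ranged from 2.06e-08 to 0.409 (edgeR and DESeq2). Its fold change was -0.96 without replicate 1 and -2.56 without replicate 2 at 18 cycles.

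In whole oocytes, ERCC counts were 35852 and 25528 at 10 cycles, 35616 and 39046 at 14 and 1611 and 1474 at 18. Counts on genes per ERCC count were 323 to 360 at 10 and 14 cycles and 1873 and 1158 at 18 cycles. The fractions, compared with the same 2 libraries at 18 cycles, had 9167 to 231470 ERCC counts. Results with ERCC scaling that use these 2 libraries rest on few spike-in counts, whose part was not tested. With size factors from the ERCC molecules the median of all genes rose to 1.96 between 18 and 10 cycles and to 1.97 between 18 and 14 cycles, from -0.29 in both. Of all genes, 0 were then lower and 8348 higher in the first comparison (edgeR, 10489 at an unadjusted p under 0.05), and 2 lower and 8398 higher in the second. On that scale Obox5 was at -0.73 (SE 0.40), Obox1 at -0.48 (SE 0.40), Obox2 at -0.47 (SE 0.40) and Obox7 at -0.048 (SE 0.45) in 18 against 10 cycles. Of the members, 0 were called by edgeR in either comparison and 0 had an unadjusted p under 0.05, and DESeq2 was not run with these size factors. All 4 lay below the all-gene median on both scales. Summed Obox counts per ERCC count were 0.720 and 0.932 at 10 cycles, 0.686 and 0.882 at 14 cycles, with 0.446 and 0.457 at 18 cycles, a mean ratio of 1.83 between 10 and 18 cycles.

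In the fractions, counts per ERCC count fell below the whole oocytes at 18 cycles. They were 0.169 and 0.145 in 1/2, 0.0854 and 0.0555 in 1/4, then 0.0627 and 0.0820 in 1/8. On this scale 1/4 and 1/8 overlapped, and 1/2 lay above both.

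The fit of fractions held 14788 genes in the 8 libraries at 18 cycles. With median ratio scaling, 0 of the 4 members tested were called in 1/2 against whole oocytes by edgeR (0 at an unadjusted p under 0.05, 0 by DESeq2), where 6 genes were lower (0.0406%) and 12 higher (0.0811%). In 1/4 against whole, 0 members were called by edgeR (0 at an unadjusted p under 0.05, 0 by DESeq2), where 63 genes were lower (0.426%) and 5 higher (0.0338%). The log2 fold changes of the members lay between -0.014 and 0.54 in 1/2 and between -0.45 and 0.45 in 1/4, with SE from 0.31 to 0.45.

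In 1/8 against whole oocytes at 18 cycles, 3 of the 4 members were higher with median ratio scaling. With ERCC scaling, given below, 4 of 4 were lower. Among all genes tested, 1285 were lower (8.69%) and 1044 higher (7.06%) with median ratio scaling. Obox5 changed by 2.34 (SE 0.32, adjusted p = 2.65e-05), Obox1 by 1.97 (SE 0.34, adjusted p = 0.000234) and Obox2 by 1.91 (SE 0.34, adjusted p = 0.000302) on the log2 scale in the quasi-likelihood test of edgeR, Benjamini-Hochberg adjusted. Obox7 was at 1.43 (SE 0.45, adjusted p = 0.0208, edgeR), past the threshold only in the fits with no filter, with the replicate block or without replicate 2 of whole oocytes at 18 cycles, and it ranged from 0.77 to 2.37 when 1 library was left out. The Obox2 call was lost without replicate 1 of whole oocytes at 18 cycles (adjusted p = 0.0120, edgeR), within a range of 3.79e-08 to 0.346 over all alternatives. The member median was 1.94 beside 0.027 over all genes.

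With ERCC scaling the median of all genes was -1.997 in 1/2, -2.69 in 1/4 and -4.92 in 1/8 against whole oocytes. Lower calls covered 7697 genes (52.0%) in 1/2, 10301 (69.7%) in 1/4 and 12937 (87.5%) in 1/8. Each fraction held less oocyte RNA beside the same amount of ERCC mix, so the lower direction was set by the design. Whether the size of the shifts matched the dilution was not tested. Members called lower numbered 2 of 4 in 1/2 (Obox1 and Obox2), 4 of 4 in 1/4 and 4 of 4 in 1/8. In 1/2, all 4 members had an unadjusted p under 0.05 and Obox5 just missed the threshold (adjusted p = 0.0102, edgeR). The Obox1 call was lost in most fits that left out 1 library, and the Obox2 call without replicate 2 of 1/2. In 1/4 the Obox5 call was lost without replicate 2 of 1/4 (adjusted p = 0.0107, edgeR), and Obox2 was at -3.71 without replicate 1 of 1/4 in place of -3.05. The member median was -1.46 in 1/2, -2.52 in 1/4 and -2.93 in 1/8. In 1/8, Obox5 was at -2.55 (SE 0.48), Obox1 at -2.89 (SE 0.51), Obox2 at -2.97 (SE 0.50) and Obox7 at -3.38 (SE 0.57), each above the all-gene median.

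**Figure D2:**
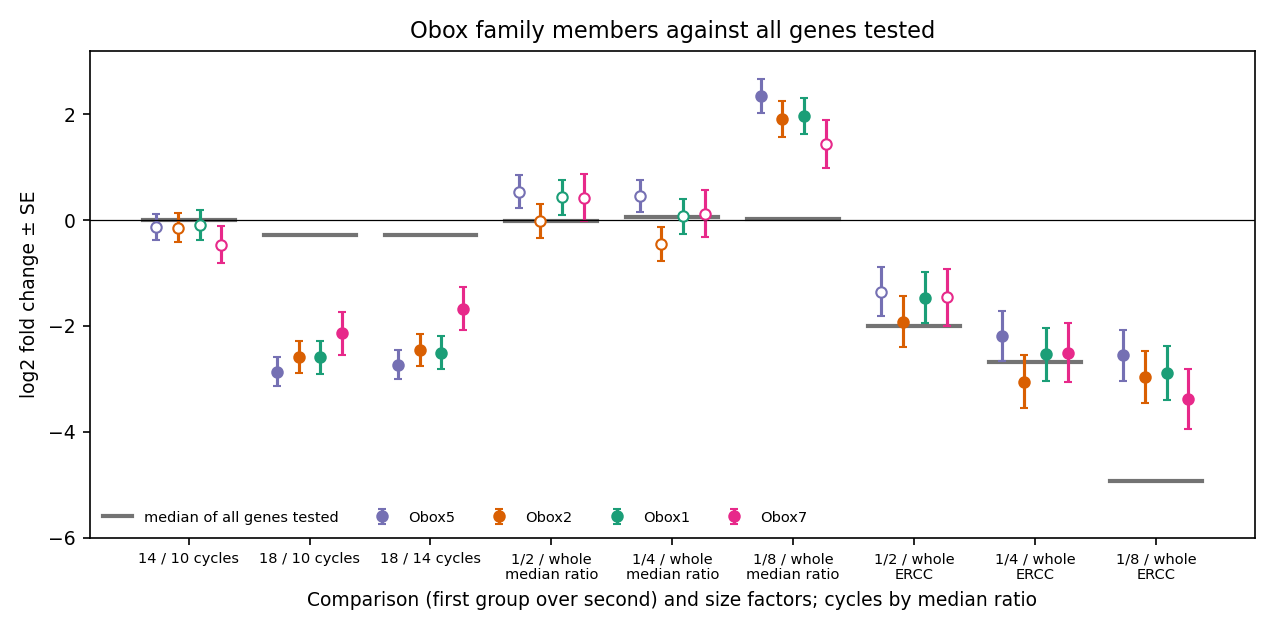
Log2 fold change ± SE from edgeR of 4 Obox members in each comparison, with filled points past an adjusted p of 0.01 and grey bars for the median of all genes tested. Members were at -2.87 to -2.14 in 18 against 10 cycles with median ratio scaling (-0.73 to -0.048 with ERCC, not drawn), and in 1/8 they were above 0 with median ratio and below 0 with ERCC scaling.

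These results changed with another reference, in a fit that also held more libraries and genes, and the part of each was not tested. Against whole oocytes at 10 cycles, in a fit of 12 libraries with median ratio scaling, Obox5 was at -2.32 (SE 0.28) in 1/2, -2.42 (SE 0.28) in 1/4 and -0.53 (SE 0.26) in 1/8. Obox2 was at -2.60 (SE 0.31), -3.05 (SE 0.32) and -0.69 (SE 0.30) in the same order. With this reference 5 members were tested, Obox6 among them. In 1/2, 4 of 5 were lower, beside 6.88% of all genes lower and 9.30% higher, and in 1/4 also 4 of 5, beside 4.17% lower and 5.82% higher. In 1/8, 0 members and 0 of 18041 genes were called by edgeR (2278 genes at an unadjusted p under 0.05), and DESeq2 was not run with this reference. With ERCC scaling on this reference 4 of 5 were lower in 1/4, beside 7.75% of all genes and an all-gene median of -0.81. Obox1 was then at -3.17, Obox2 at -3.68, Obox5 at -3.07 and Obox7 at -2.68. In 1/8 also 4 of 5 were lower with ERCC scaling, beside 74.3% of all genes. There Obox5 was at -3.34 (SE 0.39), Obox1 at -3.42 (SE 0.39), Obox7 at -3.48 (SE 0.44) and Obox2 at -3.49 (SE 0.41), each below the all-gene median of -2.82, where against whole oocytes at 18 cycles they lay above it. With median ratio scaling Obox6 was at 3.11 in 1/8 (SE 1.51, adjusted p = 0.405, edgeR), with 0.216 CPM at 10 cycles and 1.78 in 1/8. Its mean in 1/8 rested on replicate 1, with 34 counts (2.98 CPM) beside 1 count (0.588 CPM) in replicate 2. The values of the 4 maternal members in 1/8 were below those at 10 cycles, with mean CPM at 10 cycles 1.68 times that of 1/8 in Obox2, 1.64 in Obox7 and 1.60 in Obox1, 959 against 639 CPM in Obox5, and no overlap of libraries in Obox1, Obox2, Obox5 and Obox7.

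Shares in the summed Obox counts are given for the 4 maternal members. Obox1 made up 14.7% to 19.3% of the family in all 12 libraries. Obox5 made up 36.8% and 33.1% at 18 cycles in whole oocytes, below the 37.5% to 47.0% of the other libraries. Obox2 had 32.5% and 24.0% in 1/4 and 31.7% and 33.4% in 1/2. Its share was 39.1% and 38.6% at 10 cycles and 41.6% and 40.0% at 18 cycles. Obox7 had 4.89% and 5.52% at 10 cycles, 4.43% and 3.98% at 14 cycles, with 5.57% and 9.21% at 18 cycles. It reached 11.3% in replicate 2 of 1/4. These shares are descriptions and were not tested. Pearson correlations between members over the 12 libraries, on log2(CPM + 1), lay between 0.916 for Obox2 with Obox7 and 0.992 for Obox1 with Obox5, and the libraries share cycle numbers, fractions and depth.

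The members known from the embryo were near or at 0. Obox3 had 0 and 3 counts at 10 cycles, 4 and 7 at 14 cycles, 0 and 0 at 18 cycles, 0 and 0 in 1/2, 0 and 1 in 1/4 and 1 and 0 in 1/8. Its highest level was 0.507 CPM, with a Wilson 95% interval from 0.246 to 1.05 CPM. All 4 libraries at 18 cycles from whole oocytes and 1/2 were at 0, and their floors of 0.745 to 1.76 CPM lay above the highest level, so a difference was not detectable at this depth.

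Obox6 had 5 and 0 counts at 10 cycles, 2 and 3 at 14 cycles, 0 and 0 at 18 cycles, 2 and 0 in 1/2, 0 and 0 in 1/4 and 34 and 1 in 1/8. Replicate 1 of 1/8 stood apart with 2.98 CPM (Wilson 95% interval from 2.13 to 4.17 CPM) beside 0.588 CPM in replicate 2 (0.104 to 3.33 CPM). These 2 intervals overlapped. Obox8 had 1 count in replicate 1 at 10 cycles and 0 in the other 11 libraries.

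All 7 members lie on chromosome 7 of GRCm38 within 1508.2 kb (chr7:14331436-15839678). GENCODE places 84 genes in that span, and 53 of them have Obox symbols. From low to high coordinates they were Obox8 (chr7:14331436-14333557, minus strand), Obox7 (chr7:14659496-14665996, plus), Obox2 (chr7:15388721-15398545, plus), Obox1 (chr7:15388948-15556866, plus), Obox3 (chr7:15479825-15639902, minus), Obox5 (chr7:15750131-15759800, plus) and Obox6 (chr7:15833241-15839678, minus). The genes of the 4 members with counts in every library were all on the plus strand, and Obox3, Obox6 and Obox8 were all on the minus strand. Another 48 genes had Obox symbols, all named as pseudogenes, of which 39 were of Obox4, 8 of Obox3 and 1 of Obox6. By its GENCODE type, Obox4-ps35 is a long intergenic RNA (lincRNA) and not a pseudogene. Of the 48, 46 lay on chromosome 7 and 2 on chromosome 17. These 48 genes had 66 counts over the 12 libraries beside 133683 for the 7 members. Of the 48, 33 had 0 counts throughout, Obox4-ps35 among them, and the highest count in a library was 4.

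**Figure D3:**
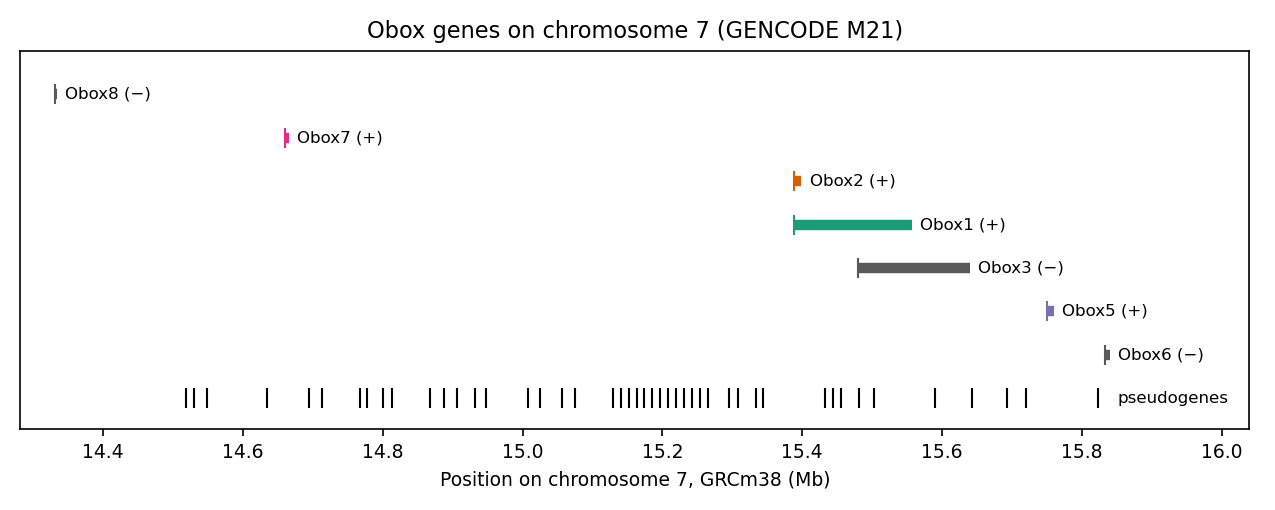
Positions of the 7 Obox genes on chromosome 7 (GRCm38, in Mb), with bars for gene bodies and strand in brackets. Ticks mark 46 Obox genes named as pseudogenes, of which Obox4-ps35 has the GENCODE type lincRNA. The annotated Obox1 gene body spans all of Obox2 except its first bases, and overlaps Obox3 on the other strand.

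Near-identical sequence limits how well members can be told apart. Of the 50-base words in annotated transcripts, 42.6% of those of Obox1 and 34.9% of those of Obox2 occurred in no other gene. Obox1 shared 56.4% of its words with Obox2, and Obox2 shared 62.7% of its words with Obox1. The division of counts between this pair, and so the order of Obox2 and Obox5 by level, is uncertain. Reads listed as not uniquely aligned numbered 0 in every library, so how such reads were handled was not settled. If they were left out, Obox1 and Obox2 would be counted too low. With words of 100 bases the shares found in no other gene were 57.7% and 52.8%. Obox5 (81.9% at 50 bases, 98.2% at 100), Obox7 (78.9% and 97.7%) and Obox3 (79.8% and 91.1%) were better separated, as were Obox6 and Obox8 (100% each at 100 bases). Only annotated transcripts were searched, since no genome sequence was used here. Obox1 and Obox2 shared 59 annotated exonic bases on the same strand, 3.11% and 3.58% of their exonic length.

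The first coding segment shows how close the members are. In 5 members it had 217 bases, from the start codon to the first splice donor of the coding sequence, in the transcript with the best support level and then the longest coding sequence (GENCODE, GRCm38). It lies at chr7:15555162-15555378 in Obox1, chr7:15396845-15397061 in Obox2, chr7:15757537-15757753 in Obox5 and chr7:14664037-14664253 in Obox7, all on the plus strand, and at chr7:15627122-15627338 in Obox3 on the minus strand. Obox2 differed from Obox1 at 2 of the 217 bases, Obox5 and Obox7 at 13 each and Obox3 at 17, and Obox5 differed from Obox7 at 7. The segments are shown 5′ to 3′ because reads from them separate Obox1 from Obox2 only at those 2 bases, and capitals mark bases that differ from Obox1.
Obox1: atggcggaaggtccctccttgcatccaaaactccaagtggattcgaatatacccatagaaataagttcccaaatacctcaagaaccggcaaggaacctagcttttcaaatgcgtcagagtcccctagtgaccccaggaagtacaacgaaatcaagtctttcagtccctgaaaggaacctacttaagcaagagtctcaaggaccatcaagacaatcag
Obox2: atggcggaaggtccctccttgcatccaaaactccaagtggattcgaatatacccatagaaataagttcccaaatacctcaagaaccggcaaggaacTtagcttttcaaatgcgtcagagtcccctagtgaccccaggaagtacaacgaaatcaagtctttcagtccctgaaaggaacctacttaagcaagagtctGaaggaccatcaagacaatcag
Obox5: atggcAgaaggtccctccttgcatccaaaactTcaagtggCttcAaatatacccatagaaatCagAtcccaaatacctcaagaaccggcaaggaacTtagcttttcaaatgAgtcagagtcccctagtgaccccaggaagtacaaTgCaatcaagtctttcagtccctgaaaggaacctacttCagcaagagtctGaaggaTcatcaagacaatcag
Obox7: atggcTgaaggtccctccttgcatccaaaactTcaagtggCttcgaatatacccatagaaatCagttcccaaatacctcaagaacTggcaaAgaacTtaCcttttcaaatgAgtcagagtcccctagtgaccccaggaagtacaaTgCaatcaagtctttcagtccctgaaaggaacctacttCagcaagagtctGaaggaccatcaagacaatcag
Obox3: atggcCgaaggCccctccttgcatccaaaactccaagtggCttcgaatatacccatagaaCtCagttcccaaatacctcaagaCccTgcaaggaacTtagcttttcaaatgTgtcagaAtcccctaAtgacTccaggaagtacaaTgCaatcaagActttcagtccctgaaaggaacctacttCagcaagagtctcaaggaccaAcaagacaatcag

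Downstream of this segment the members differ more in length. The coding sequence had 612 bases in Obox1, 453 in Obox2, 873 in Obox5, 654 in Obox7, 1005 in Obox3, 1041 in Obox6 and 651 in Obox8. The second coding segment had 200 bases in Obox1, Obox3, Obox5 and Obox7 and 199 in Obox2. Between Obox1 and Obox5, 9 of those 200 bases differed, and between Obox1 and Obox7, 19.

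Promoter windows of 250 bases before to 50 after the transcript start came from RefSeq (GRCm38.p6), which held 5 of the 7 members, all but Obox6 and Obox8. These 5 shared an unbroken run of 25 bases, found in 5 of the 32851 promoter windows, and without Obox3 the run shared by the other 4 was 44 bases long. The run of 25 bases is printed because it is common to members with high and with very low counts.
Shared run: GTGAGAATTAAGGATTTGAATATTG
It lies at chr7:15547159-15547183 in Obox1, chr7:15388850-15388874 in Obox2, chr7:15750260-15750284 in Obox5 and chr7:14659624-14659648 in Obox7 (plus strand), and at chr7:15639862-15639886 in Obox3 (minus strand). In each member the run also lies in an exon of 1 GENCODE transcript, so it is in part transcribed sequence. Motifs were searched on both strands, and a match is a description of letters only. TAATTG was in 8.00% of all promoter windows and in 0 of the 5 members, and TAATTA in 5.29% and 0. GGATTA was in 7.06% of windows and in Obox3 alone among members, and TATAAA in 13.6% and Obox3 alone. TATATAA, chosen after the sequences were seen, was in 3.24% of windows and in Obox1, Obox3, Obox5 and Obox7, starting 19, 30, 31 and 5 bases before the RefSeq start.

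Base composition moved with the results across genes. The longest transcripts of the 4 tested members had 41.9% to 43.1% GC, and the median over genes tested in whole oocytes was 49.0%. All 4 members were in the lowest 1/4 of genes by GC. The median log2 fold change in 18 against 10 cycles was -1.03 in that 1/4 of genes and 0.70 in the highest 1/4, and in 1/8 against whole, with median ratio scaling, it was 0.66 and -0.87. The part of GC or depth in the Obox results was not tested by a fit with either as a term. When counts were drawn down to the smallest total, an alternative chosen after seeing the data, 4 of 4 members were lower in 18 against 10 cycles (12.3% of all genes lower, 15.4% higher) and 4 of 4 in 18 against 14 (12.5% and 15.8%). In 1/8 against whole 3 of 4 were then higher, beside 7.71% of all genes higher and 9.43% lower with median ratio scaling.

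Genes most like each member were sought among 8855 genes with a mean of at least 10 CPM, by Pearson's r of log2(CPM + 1) over the 12 libraries. Obox1 was most like E330034G19Rik (r = 0.991), Dcun1d1 and AA545190. Obox2 was most like Oosp3 (r = 0.988), Fbxw27 and Aven, and Obox5 was most like Clk1 (r = 0.993), E330021D16Rik and Fbxw15. Obox7 was most like Rnf185 (r = 0.985), Tex26 and Slc31a1. For the summed family the genes were Dcun1d1 (r = 0.995), Fbxw15 and C87977. The 12 points share cycle number, fraction and depth.

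Of 20 other oocyte and maternal transcription factors, 17 were tested, and whether they differed from the Obox members was not tested. In 18 against 10 cycles with median ratio scaling 4 were lower and 3 higher, beside 10.8% and 12.3% of all genes, with a median of 0.42 beside -2.59 over Obox members and -0.29 over all genes. Gsc was at 2.65 (SE 0.40), Pou5f1 at 1.35 (SE 0.19) and Lhx8 at 1.33 (SE 0.22), while Tbpl2 was at -2.37 (SE 0.59), Dppa2 at -1.63 (SE 0.38) and Nobox at -1.32 (SE 0.19), and Dppa2 and Nobox turned to 0.67 and 0.94 with ERCC scaling. With that scaling 0 were lower (edgeR, 0 of them at an unadjusted p under 0.05) and 9 higher, beside 0 genes lower and 47.6% higher, and the list median was 2.55. With 1 library left out, in 6 fits, the Dppa2 call was lost in 6 and that of Tbpl2 in 5, with adjusted p up to 0.0418 and 0.105, and those of Gsc and Lhx8 were lost without replicate 2 at 10 cycles (0.0126 and 0.0212, edgeR). Tbpl2 was at -1.53 without replicate 1 and -3.22 without replicate 2 at 18 cycles. In 18 against 14 cycles 4 were lower and 3 higher with median ratio scaling, beside 10.7% and 12.5% of all genes, with a median of 0.32, and 0 lower (edgeR, 0 at an unadjusted p under 0.05) and 9 higher with ERCC scaling. In 1/8 against whole, 2 were lower (Gsc at -3.28 and Pou5f1 at -1.07) and 2 higher (Sebox at 1.53 and Nobox at 1.11) with median ratio scaling, beside 8.69% and 7.06% of all genes, with a median of -0.47. Of the 8 fits that left out 1 library, the Pou5f1 call was lost in 5, that of Nobox in 5 and that of Sebox in 2, with adjusted p up to 0.0762, 0.0405 and 0.0125 (edgeR). Without replicate 1 of 1/8, Gsc was at -5.45. In 14 against 10 cycles, 1/2 against whole and 1/4 against whole, 0 were called by edgeR, with 1, 3 and 8 at an unadjusted p under 0.05 and 0, 1 and 1 called by DESeq2. With ERCC scaling 10, 16 and 16 of 17 were lower in 1/2, 1/4 and 1/8 (58.8%, 94.1% and 94.1%), beside 52.0%, 69.7% and 87.5% of all genes.

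Genes of the 2-cell embryo rise when the embryonic genome is activated. In each library 9 to 14 of the 17 listed were at 0 counts, while Tcstv1 reached 152 CPM in replicate 2 at 10 cycles. Of 17 listed, 5 were tested in whole oocytes and 4 in the fractions. In 18 against 10 cycles 3 of 5 were lower with median ratio scaling, beside 10.8% of all genes, and the list median was -2.67. Tcstv3 was at -4.29 (SE 0.51) and Tcstv1 at -2.67 (SE 0.39). In 18 against 14 cycles 3 of 5 were lower, beside 10.7% of all genes, with a median of -2.41. With ERCC scaling 0 were called by edgeR in either comparison, with 1 at an unadjusted p under 0.05 in each and medians of -0.51 and -0.16. In 1/8 against whole 3 of 4 were higher with median ratio scaling, beside 7.06% of all genes, with Tcstv3 at 3.82 and Tcstv1 at 2.37, and the list median was 2.35. The Tcstv3 call was lost in 3 of the 8 fits that left out 1 library (adjusted p up to 0.0396, edgeR), and the Tcstv1 call in 18 against 10 cycles without replicate 1 at 18 cycles (0.0139). There Tcstv1 was at -1.99 without replicate 2 at 10 cycles. In 14 against 10 cycles, 1/2 and 1/4, 0 were called by edgeR, with 0, 1 and 1 at an unadjusted p under 0.05 and 0 in each called by DESeq2. With ERCC scaling 0, 2 and 2 of 4 were lower in 1/2, 1/4 and 1/8, beside 52.0%, 69.7% and 87.5% of all genes, the first with 2 at an unadjusted p under 0.05 and 1 called by DESeq2. Tcstv1 and Tcstv3 belong to a multigene family, so their counts are uncertain.

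Oocyte markers were lower at 18 cycles with median ratio scaling, and their medians were above 0 with ERCC scaling. With median ratio scaling 12 of 13 were lower in 18 against 10 cycles and 13 of 13 in 18 against 14 cycles, beside 10.8% and 10.7% of all genes, and 10 of 13 were higher in 1/8 against whole, beside 7.06%. Their medians were -1.52, -1.54 and 1.37 beside -2.59, -2.48 and 1.94 over Obox members. With ERCC scaling 0 were lower (edgeR, 0 at an unadjusted p under 0.05) and 2 higher in 18 against 10 cycles, and 0 lower (0 at an unadjusted p under 0.05) and 1 higher in 18 against 14. The medians were then 0.72 and 0.71 beside -0.47 and -0.32 over Obox members. In 14 against 10 cycles, 1/2 and 1/4, 0 were called by edgeR, with 0, 5 and 10 at an unadjusted p under 0.05 and 0, 2 and 5 called by DESeq2. With ERCC scaling 8, 13 and 13 of 13 were lower in 1/2, 1/4 and 1/8, beside 52.0%, 69.7% and 87.5% of all genes. Of 12 cumulus and granulosa markers, 10 were tested in whole oocytes and 1 was lower in 18 against 10 and in 18 against 14 cycles with median ratio scaling, beside 10.8% and 10.7% of all genes, with medians of -0.79 and -0.82. In the fractions 6 were tested and 1 was higher in 1/8 with median ratio scaling, beside 7.06% of all genes, with a list median of -1.88. Cyp19a1 was that marker each time, named here after its values were seen. With ERCC scaling 0 were lower in either cycle comparison (edgeR, 0 at an unadjusted p under 0.05), and 0 (2 at an unadjusted p under 0.05) and 1 were higher, with medians of 1.48 and 1.53. In 14 against 10 cycles, 1/2 and 1/4, 0 were called by edgeR, with 0, 3 and 3 at an unadjusted p under 0.05 and 0 in each called by DESeq2. With ERCC scaling 3, 2 and 6 of 6 were lower, beside the same shares of all genes. The part of either marker list in the Obox results was not tested.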

How the data were processed

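The 12 libraries of GV oocytes held poly(A) RNA. The authors trimmed reads with cutadapt, aligned them with STAR to GRCm38 plus the ERCC sequences and counted them with HTSeq, for which the submitters' notes list cutadapt 2.5, STAR 2.7.2a and HTSeq 0.9.1. The deposited values are raw counts for genes and ERCC molecules. Reads on no feature made up 6.90% to 10.8% of a library and ambiguous reads 2.64% to 4.53%, and both stayed out of totals and tests. The paper states default parameters for HTSeq, in a version other than the one in the submitters' notes. Whether counting used strand was not settled. The gene bodies of Obox1 and Obox3 overlap on opposite strands, but Obox3 shared 0 annotated exonic bases with another gene on either strand.

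CPM, exon lengths from GENCODE mouse release 21 and Wilson intervals at 95% were computed from these counts. Tests used edgeR 4.0.16 in R 4.3.3, with DESeq2 1.42.0 as an alternative and Python 3.11.15 for the other values. Genes needed 5 counts in 2 or more libraries. The cycle fit held 6 libraries and the fraction fit 8. Size factors were median ratios over genes past this filter or over ERCC molecules. Size factors over all genes came first, and the filtered genes replaced them after call counts under both had been compared with earlier results of these data. The fit was also run on simulated counts, and no result given here rests on that run. Alternatives were DESeq2, TMM or ERCC size factors, total ERCC counts, no filter, a filter of 10 counts in every library, the replicate number as a block, whole oocytes at 10 cycles as reference and leaving out each library. Size factors over all genes, counts drawn down to the smallest total and crossed replicate numbers were added after seeing the data.

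All 7 members are named. From each list of other genes, at most 6 past the threshold are named, those with the largest absolute log2 fold change in 18 against 10 cycles and in 1/8 against whole. A gene withheld for evaluation is not reported here by name. The 3 genes most like a member needed a mean of at least 10 CPM, and members had at least 10 counts in every library. The members, lists and alternatives were chosen with earlier results of these data known.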

Additional observations from a re-analysis of the deposited data

How the results depend on the processing

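Of the results for single members past the threshold, 21 in all, 308 values came from alternative settings, of which 279 kept direction and call, 25 lost the call and 4 changed direction. With ERCC size factors 0 members were called in 18 against 10 and in 18 against 14 cycles, and Obox7 turned to 0.47 in the second. Dppa2 and Nobox turned to 0.67 and 0.94 in 18 against 10 cycles. The fit with whole oocytes at 10 cycles as the reference also held 12 libraries in place of 8. Members called were then 4 in 1/2, 4 in 1/4 and 0 in 1/8 with median ratio and 4 in 1/2 with ERCC scaling. In the same order, all genes called lower and higher were 1242 and 1678, 752 and 1050, 0 and 0, and 384 and 1181 of 18041. On that reference, with median ratio scaling, Obox1, Obox5 and Obox7 turned to -2.15, -2.32 and -1.67 in 1/2 and to -2.52, -2.42 and -1.99 in 1/4. In 1/8 Obox1, Obox2, Obox5 and Obox7 turned to -0.63, -0.69, -0.53 and -0.69, and Nobox, Pou5f1, Tcstv3 and Tcstv1 to -0.22, 0.27, -0.45 and -0.29. Total ERCC counts as size factors, on the 18-cycle reference, brought Obox5 in 1/2 past the threshold (adjusted p = 0.00989, edgeR). In 1/2 with ERCC scaling, the number called, 2, became 4 with DESeq2, 4 with at least 10 counts in every library, 1 with no filter and 0 to 3 when 1 library was left out. The cause was not tested.

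Values that missed the threshold and lay near 0 also changed sign. In 1/2, Obox2 turned to 0.019 with TMM and to 0.0078 with counts drawn down, where Obox1 in 1/4 turned to -0.0061. Leaving out 1 library gave, in 14 against 10 cycles, -0.24 to 0.054 for Obox1, -0.38 to 0.058 for Obox2 and -0.28 to 0.027 for Obox5. With median ratio scaling it gave -0.019 to 0.99 for Obox1, -0.38 to 0.43 for Obox2 and -0.23 to 1.37 for Obox7 in 1/2, and -0.38 to 0.63 for Obox1 and -0.53 to 1.06 for Obox7 in 1/4. A group left with 1 library is assumed to vary like the others. The cause was not tested. The summed level moved to 2146 CPM at 10 cycles and 373 CPM in 1/2 with reads on no feature in the denominator, and to 463 CPM in 1/2 with median ratio scaling, by construction of these scales.

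Same-numbered libraries deviated with correlations of -0.15 to 0.14 in whole oocytes and -0.094 to 0.096 in the fractions, so the numbers were not treated as pairs. The fractions came from the lysates of the same 2 oocytes, so their groups are linked by design. Which library came from which lysate was not known here, and these correlations follow the numbering only. The main fit of fractions treated the libraries as independent. With the replicate block 4 members were called in 1/2 with ERCC scaling and 4 in 1/8 with median ratio scaling. It left the number called at 0, 4 and 4 in the cycle comparisons. With crossed replicate numbers at 14 cycles, chosen after seeing the data, the members called were 0, 4 and 4. With size factors over all genes they were also 0, 4 and 4, and 0, 0 and 3 in 1/2, 1/4 and 1/8. Depth limits Obox3, Obox6 and Obox8, which were at or near the floor in most libraries.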
